A study of Mus musculus with 12 samples.

Results

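Iron handling in liver cells was followed through 9 genes that take iron up, store it, release it or control these steps, which were Trf, Tfrc, Tfr2, Slc11a2, Hamp, Slc40a1, Fth1, Ftl1 and Ireb2. They were chosen by name, with earlier results of these data known, and every array feature annotated with only 1 of these symbols was used. Of the 9 genes, 8 had a ratio on all 12 arrays and were tested among 16549 genes. Hamp had no ratio on 3 Hepa 1-6 arrays and is described without a test across lines.

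Iron circulates bound to transferrin, which cells bind through transferrin receptors and take up by endocytosis. Within the endosome the iron is released and carried into the cytosol, where it is used or stored in ferritin, and ferroportin is the route by which it leaves the cell. Hepatocytes are the main source of transferrin and of hepcidin, the peptide hormone that makes ferroportin be degraded. In mammalian cells, iron regulatory proteins bind the messenger RNAs of ferritin, ferroportin and transferrin receptor 1 and couple their translation or stability to the iron supply.

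Both lines came from mice. AML12 is a hepatocyte line from animals that carry a TGF-alpha transgene, kept with dexamethasone and insulin until the additives were removed, and Hepa 1-6 is a hepatoma line kept without these additives. The labels give hepatoma as the cell source of both. Medium with 10% fetal bovine serum was replaced overnight by medium free of serum and supplements in all 6 groups. In each line, 1 group stayed serum-free as control, 1 received ovine pituitary prolactin at 200 ng/mL and 1 received actinomycin D, an inhibitor of transcription, at 10 µg/mL, both for 8 h. Each group held 2 arrays, described as biological replicates of a single cell line, so differences between lines are differences between these particular lines. Every array compared the sample, labelled with Cy5, with the same Cy3-labelled reference RNA pooled from 11 mouse cell lines.

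Levels are log2 ratios of sample over reference, converted from deposited log ratios whose base is not stated and was taken to be 10, so 0 means the same signal as in the reference, and they cannot be compared between genes. Every log2 value, fold and count of genes at least 2-fold apart below depends on this base, and with a base of 2 the log2 values would be smaller by a factor of 3.32. They are also relative to the other transcripts on the array, and in RNA from whole cultures fewer expressing cells and less RNA per cell cannot be told apart. A rise or fall below, also with actinomycin D, is therefore one of the ratio. Whether the amount of a transcript per cell changed was not tested. Differences between groups are log2 differences ± the standard error from limma, with p-values adjusted over all 16549 genes. A gene is said to rise, fall or differ where the adjusted p was under 0.05. Replicate arrays correlated at 0.975 to 0.985 across genes.

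The hepatocyte markers albumin (Alb) and Hnf4a were above the reference in both control groups, with Hnf4a at a mean log2 ratio of 3.63 in AML12 and 3.46 in Hepa 1-6. Of the 8 hepatocyte markers tested, Alb, Hnf4a, Fgb and Tat were not called different between the controls (adjusted p = 0.288 to 0.691), and Fgb was at 5.30 and 5.51. The other 4 were lower in Hepa 1-6, of which Apob and Apoa1 were above the reference in both lines, while Apoh was at 5.76 in AML12 and at -1.40 in Hepa 1-6 and Ahsg at 2.84 and -2.20. Averaged over the hepatocyte markers measured, the log2 ratio was 3.98 to 4.23 on AML12 control arrays and 1.81 to 1.84 on Hepa 1-6 control arrays. The leukocyte and macrophage markers Ptprc and Adgre1 lay at -5.50 and -4.13 in AML12 and at -8.07 and -4.57 in Hepa 1-6, and Lyz2 at -3.15 and -2.97. Cd14 of the same list was above the reference in AML12 controls, at 0.72, and at -1.55 in Hepa 1-6, and with actinomycin D it rose by 1.34 ± 0.09 in AML12 (adjusted p = 1.14e-05) and fell by 0.73 on the log2 scale in Hepa 1-6 (adjusted p = 0.000362). Of 4 biliary or epithelial progenitor markers, 3 were lower and 1 higher in Hepa 1-6 (29.8% and 32.1% of all genes). Among them the keratin Krt19 was lower, at 4.07 in AML12 and -4.15 in Hepa 1-6. Epcam was higher, at -4.83 and -2.48 (adjusted p = 6.58e-07). The part of these genes in the results below was not tested.

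Between the untreated lines, 7 of the 8 tested genes differed, 2 higher and 5 lower in Hepa 1-6, where 61.9% of all genes were called, 32.1% higher and 29.8% lower. With prolactin, 1 of 8 changed in AML12, the ferroportin gene Slc40a1, which rose (1.27% of all genes called, 0.719% higher and 0.55% lower). In Hepa 1-6, 0 of 8 changed with prolactin in limma, with 2 at an unadjusted p under 0.05 (0.0363% of all genes called, 0.0302% higher and 0.00604% lower). With actinomycin D, all 8 tested genes changed in AML12, 5 higher and 3 lower (53.6% of all genes called, 28% higher and 25.5% lower). In Hepa 1-6, 4 of the 8 rose and 1 fell with actinomycin D (50.9% of all genes called, 27.9% higher and 23% lower). The responses to actinomycin D differed between the lines for 6 of the 8, 2 higher and 4 lower in Hepa 1-6 (30% of all genes called, 17.2% higher and 12.8% lower). The responses to prolactin differed for 0 of the 8 in limma, with 2 at an unadjusted p under 0.05 (0.121% of all genes called, 0.0544% higher and 0.0665% lower).

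With prolactin, the absolute log2 difference had a median of 0.11 over the 8 genes in each line, beside 0.12 and 0.090 over all genes in AML12 and Hepa 1-6. With actinomycin D these medians were 0.67 in AML12 and 0.51 in Hepa 1-6, beside 0.38 and 0.34 over all genes. Between the control groups the median was 1.33, beside 0.48 over all genes. There 5 of the 8 genes were at least 2-fold apart, as were 25.3% of all genes, counted whether called or not.

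**Figure D1:**
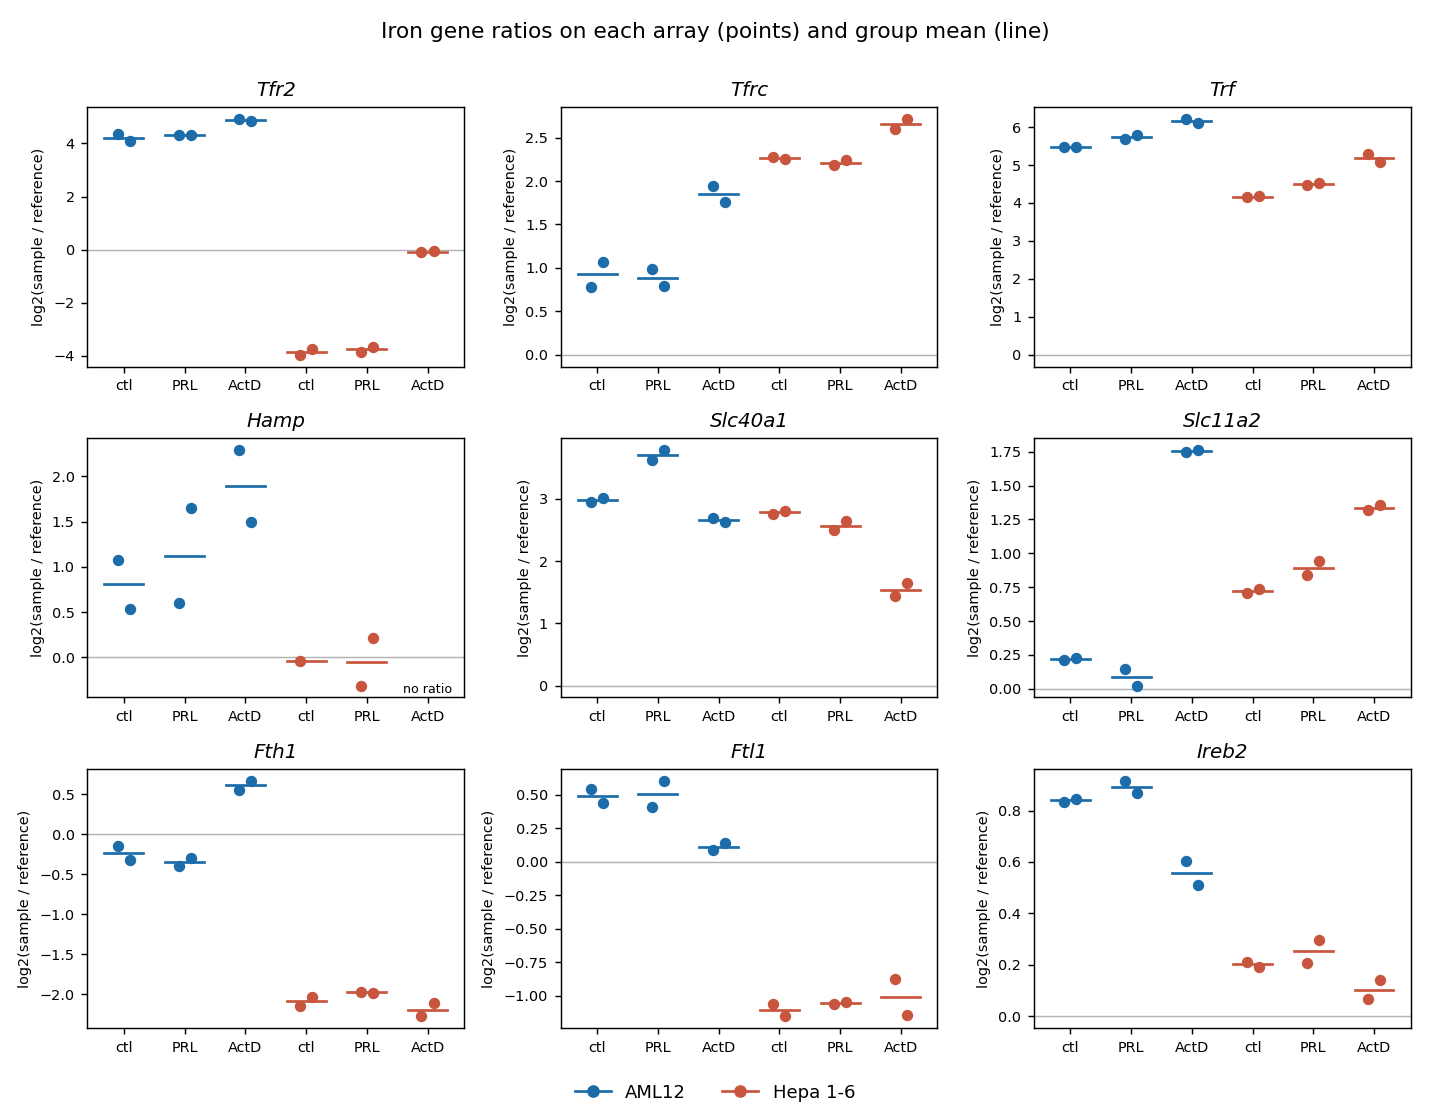
Log2 ratio of sample over reference (vertical axes, scaled per gene) for 9 iron genes on each array, as points, with the group mean as a line. The groups along each horizontal axis are serum-free control (ctl), prolactin (PRL) and actinomycin D (ActD), AML12 in blue and Hepa 1-6 in red. Tfr2 lies above 4 on every AML12 array and at -3.65 or below on Hepa 1-6 control and prolactin arrays, and Hamp has no ratio on both actinomycin D arrays of Hepa 1-6.

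**Figure D2:**
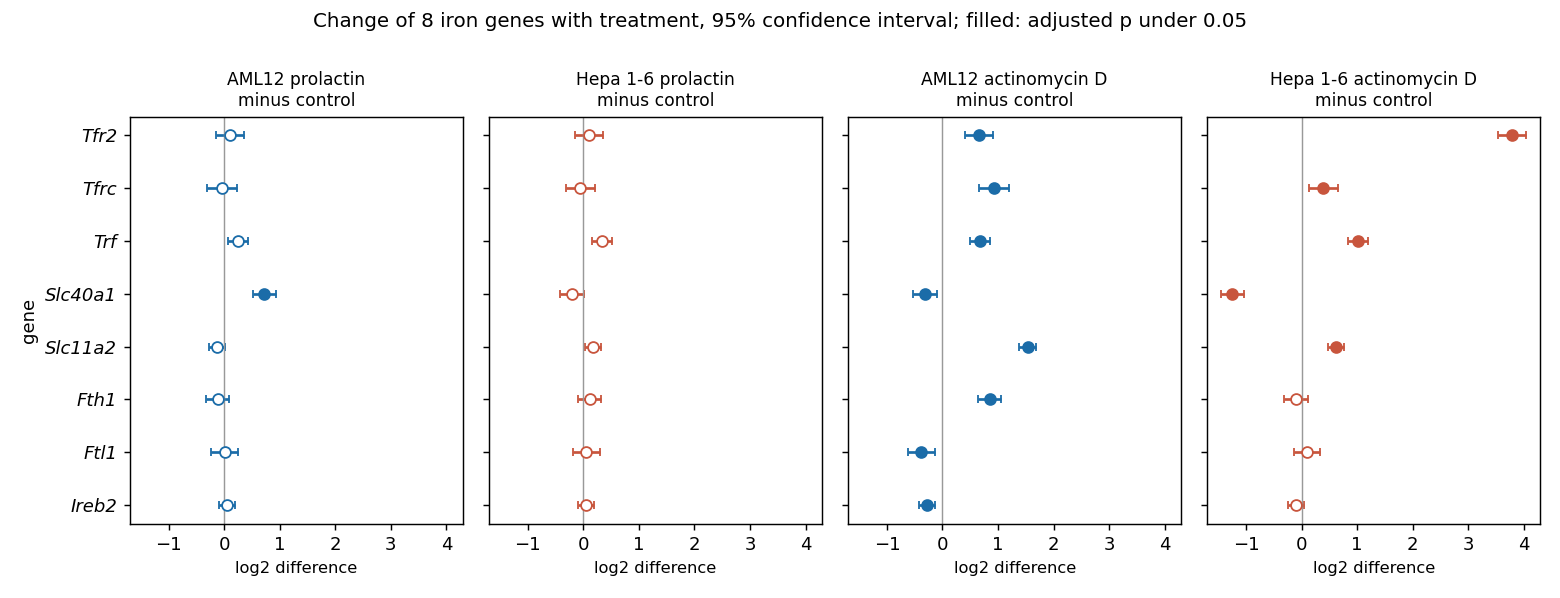
Log2 difference from the control of the same line (horizontal axes) for the 8 tested genes, with 95% confidence intervals from limma. Filled points passed an adjusted p of 0.05. With prolactin the only filled point is Slc40a1 in AML12, at 0.73, while with actinomycin D all 8 are filled in AML12 and 5 in Hepa 1-6, Tfr2 reaching 3.78.

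Trf encodes transferrin, the plasma protein that carries iron. Its log2 ratio was 5.48 on both AML12 control arrays, 5.68 and 5.78 under prolactin, and 6.21 and 6.11 under actinomycin D. In Hepa 1-6 it was 4.15 and 4.19 without treatment, 4.48 and 4.52 under prolactin, and 5.28 and 5.08 under actinomycin D. No 2 of the 6 groups overlapped, and in each line the order was control, prolactin, actinomycin D. The step from control to prolactin was not called in either line. Ratios of this size were deposited in steps of 0.033 on the log2 scale, so equal replicates do not mean that the spread was 0.

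Trf was lower in Hepa 1-6 controls than in AML12 controls by 2.48-fold, a log2 difference of -1.31 ± 0.08 (adjusted p = 1.77e-06). Prolactin gave 0.25 ± 0.08 in AML12 (95% confidence interval 0.069 to 0.43, adjusted p = 0.173) and 0.33 ± 0.08 in Hepa 1-6 (0.15 to 0.51, adjusted p = 0.322), neither past the threshold. With actinomycin D Trf rose by 0.68 ± 0.08 in AML12 (adjusted p = 0.000179) and by 1.01 ± 0.08 in Hepa 1-6 (adjusted p = 3.12e-05). The AML12 rise was 0.012 after quantile normalization (adjusted p = 0.929) and was no longer called. The difference between these responses, 0.33 ± 0.11, missed the threshold (adjusted p = 0.0548), and passed after quantile normalization at 0.59 (adjusted p = 0.0170), without the second Hepa 1-6 actinomycin D array (0.0221) and without the lowest 20% of mean ratios (0.0495).

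Tfrc encodes transferrin receptor 1, the receptor that most dividing cells use to take up transferrin. On the array it was printed as 10 features of the same accession, whose standard deviation on any array was 0.017 to 0.032. The mean of the spots was 0.78 and 1.07 in untreated AML12, 0.98 and 0.79 under prolactin, and 1.95 and 1.75 under actinomycin D. In Hepa 1-6 it was 2.27 and 2.26 without treatment, 2.19 and 2.24 under prolactin, and 2.60 and 2.71 under actinomycin D. The gap of 0.28 between the AML12 controls was thus larger than the spread between spots, and the AML12 control and prolactin arrays overlapped.

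Tfrc was higher in Hepa 1-6 controls than in AML12 controls by 1.34 ± 0.11, or 2.53-fold (adjusted p = 1.52e-05). Prolactin gave -0.041 ± 0.11 in AML12 (-0.31 to 0.22, adjusted p = 0.900) and -0.052 ± 0.11 in Hepa 1-6 (-0.32 to 0.21, adjusted p = 0.953). The Tfrc ratio rose with actinomycin D by 0.92 ± 0.11 in AML12 (adjusted p = 0.000272) and by 0.39 ± 0.11 in Hepa 1-6 (adjusted p = 0.0216). The Hepa 1-6 call was lost without either Hepa 1-6 control (adjusted p = 0.0736 and 0.0803), without the second actinomycin D array (0.103) and after quantile normalization, where the rise was 0.12 (0.398). The rise was smaller in Hepa 1-6 by 0.53 ± 0.16 (log2 difference -0.53, adjusted p = 0.0406), and 11 of 22 alternatives ended this call. Among them were the fits without the first AML12 control, the first AML12 actinomycin D array, or any single Hepa 1-6 array, with adjusted p-values up to 0.111.

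Tfr2 encodes transferrin receptor 2, which hepatocytes and erythroid precursors carry and which takes part in sensing iron-loaded transferrin for the control of hepcidin. Its log2 ratio was 4.35 and 4.09 in AML12 controls, 4.32 on both prolactin arrays, and 4.92 and 4.85 with actinomycin D. In Hepa 1-6 it was -3.95 and -3.75 without treatment, -3.85 and -3.65 under prolactin, and -0.081 and -0.063 under actinomycin D. AML12 was far above the reference in every group, and Hepa 1-6 came up to the level of the reference with actinomycin D and not otherwise. Control and prolactin groups overlapped in each line.

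The control groups differed by -8.07 ± 0.11, so the Tfr2 ratio was 269-fold lower in Hepa 1-6 (adjusted p = 1.66e-09). With actinomycin D Tfr2 rose by 3.78 ± 0.11 in Hepa 1-6, which is 13.7-fold (adjusted p = 8.19e-07), and by 0.66 ± 0.11 in AML12, which is 1.58-fold (adjusted p = 0.00129). The rise in Hepa 1-6 was larger by 3.12 ± 0.15 (adjusted p = 2.28e-05). Under prolactin Tfr2 was at 0.10 ± 0.11 against control in either line, which was not called (-0.15 to 0.35, adjusted p = 0.706 and 0.878). The AML12 rise with actinomycin D was 0.16 after quantile normalization (adjusted p = 0.336) and was no longer called. Tfr2 had 1 feature and detection above background was not used here, so whether the lowest ratios in Hepa 1-6 lie near the detection limit was not tested.

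The 2 receptor genes thus stood in opposite order between the lines, Tfrc higher and Tfr2 lower in Hepa 1-6, while each rose with actinomycin D in both, with the exceptions given above. The 250 bases before an annotated start of each gene are shown for comparison, from RefSeq on GRCm38.p6, 5′ to 3′ on the strand of the gene. The 3 motifs were searched on both strands and are in capitals, TTCNNNGAA for STAT factors, GGCGCC for the BMP-responsive element known from the hepcidin promoter, and ACGTG for the core bound by hypoxia-inducible factors.
Tfrc, chr16:32608646-32608895, plus strand: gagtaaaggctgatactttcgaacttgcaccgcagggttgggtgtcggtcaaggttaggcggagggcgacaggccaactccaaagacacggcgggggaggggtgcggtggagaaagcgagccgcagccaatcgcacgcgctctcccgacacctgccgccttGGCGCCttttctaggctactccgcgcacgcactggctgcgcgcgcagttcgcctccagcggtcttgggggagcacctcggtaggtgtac
Tfr2, chr5:137569590-137569839, plus strand: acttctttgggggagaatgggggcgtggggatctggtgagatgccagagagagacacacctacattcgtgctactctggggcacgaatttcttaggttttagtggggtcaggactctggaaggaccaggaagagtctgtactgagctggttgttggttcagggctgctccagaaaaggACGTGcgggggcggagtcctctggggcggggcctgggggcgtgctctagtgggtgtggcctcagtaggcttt
The Tfrc window held GGCGCC at 89 to 84 bases before the start, and the Tfr2 window held ACGTG at 72 to 68 bases before it. Of 32851 windows of this length 9.59% held GGCGCC, 16.6% held ACGTG and 7.02% held TTCNNNGAA. Another annotated start of Tfrc and 2 others of Tfr2 have windows of their own, of which the Tfrc window and 1 of the Tfr2 windows held ACGTG on either strand.

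Slc11a2 encodes DMT1, the divalent metal transporter that moves ferrous iron out of the endosome. The mean of its 3 features was 0.21 and 0.23 in untreated AML12, 0.15 and 0.024 under prolactin, and 1.75 and 1.76 under actinomycin D. In Hepa 1-6 it was 0.71 and 0.73 without treatment, 0.84 and 0.95 under prolactin, and 1.32 and 1.36 under actinomycin D. By this mean no groups overlapped, and AML12 was the lower line without actinomycin D and the higher line with it. This order was not shared by every feature, as given below.

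Slc11a2 was higher in Hepa 1-6 controls by 0.50 ± 0.06 (adjusted p = 0.000174). It rose with actinomycin D by 1.53 ± 0.06 in AML12, or 2.90-fold (adjusted p = 1.04e-06), and by 0.62 ± 0.06 in Hepa 1-6, or 1.54-fold (adjusted p = 0.000124). The rise in Hepa 1-6 was smaller by 0.91 on the log2 scale (difference -0.91 ± 0.09, adjusted p = 0.000348). Prolactin gave -0.13 ± 0.06 in AML12 (-0.28 to 0.013, adjusted p = 0.338) and 0.17 ± 0.06 in Hepa 1-6 (0.028 to 0.32, adjusted p = 0.536).

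The 3 Slc11a2 features, 1 of them designed on another database entry than the remaining 2, did not move by the same amount. With actinomycin D in AML12, they rose by 1.32, 2.16 and 1.12, all called when every feature was tested by itself. In Hepa 1-6 the last 2 rose by 1.02 and 0.80, while the first was at 0.032 (adjusted p = 0.812). With this first feature alone, which has the highest ratio, Slc11a2 lost its call for actinomycin D in Hepa 1-6 (adjusted p = 0.816) and for the difference between control groups, which became 0.25 (adjusted p = 0.0586). The third feature gave a difference between the lines' responses of -0.32 that did not pass (adjusted p = 0.115), against -1.29 and -1.14 for the others. On the feature with the difference of -0.32, the lines overlapped with actinomycin D, at 1.44 and 1.38 in AML12 and 1.51 and 1.31 in Hepa 1-6. Its AML12 control and prolactin arrays also overlapped. The switch in line order was thus absent from this feature and present in the others. Slc11a2 is known to be made as several isoforms, and which of them each feature measures was not tested.

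Hamp encodes hepcidin. Its log2 ratio was 1.08 and 0.54 in untreated AML12, 0.60 and 1.65 under prolactin, and 2.29 and 1.49 under actinomycin D. In Hepa 1-6 it was -0.037 on 1 control array and absent on the other, -0.31 and 0.21 with prolactin, and absent on both actinomycin D arrays. Replicates lay far apart in each AML12 group (SD 0.38 to 0.74, n = 2), the control and prolactin groups overlapped, and the prolactin and actinomycin D groups overlapped. AML12 arrays all lay above the Hepa 1-6 arrays that had a ratio, and absence of a ratio is not evidence of a level of 0.

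Fitted on the 6 AML12 arrays alone, a fit added after seeing the data, Hamp was at 0.32 against control with prolactin (adjusted p = 0.799). With actinomycin D it was at 1.08 (adjusted p = 0.114). Over the 12 arrays with missing ratios set to a ratio of 1, the same differences had adjusted p-values of 0.790 and 0.0664. Neither treatment therefore changed Hamp past the threshold in AML12, and differences of this size could not be told from the spread between arrays. The RefSeq annotation also places Hamp2, a close paralogue, beside Hamp on chromosome 7, and a probe may bind both transcripts, so the assignment of this signal to Hamp is uncertain.

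The Hamp promoter is shown because hepcidin is known to be induced through STAT3 and through BMP and SMAD signalling, and prolactin signals through STAT5. The 250 bases before its start, on GRCm38.p6 from RefSeq, are written as for Tfrc and Tfr2 above.
Hamp, chr7:30944030-30944279, minus strand: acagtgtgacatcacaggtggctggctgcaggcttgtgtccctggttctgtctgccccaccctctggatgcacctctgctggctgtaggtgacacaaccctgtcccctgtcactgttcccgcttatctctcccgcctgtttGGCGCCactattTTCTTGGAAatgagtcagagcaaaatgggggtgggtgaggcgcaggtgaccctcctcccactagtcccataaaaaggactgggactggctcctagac
It held GGCGCC at 109 to 104 bases and TTCTTGGAA, a match to TTCNNNGAA, at 97 to 89 bases before the start, and no ACGTG. These matches describe letters in the window and do not show that a factor was bound. Of the 9 genes 6 had promoter windows, and no window of the other 5 held TTCNNNGAA.

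Slc40a1 encodes ferroportin, the iron exporter on which hepcidin acts. Its log2 ratio was 2.95 and 3.01 in untreated AML12, 3.62 and 3.79 under prolactin, and 2.69 and 2.63 under actinomycin D. In Hepa 1-6 it was 2.76 and 2.80 without treatment, 2.49 and 2.65 under prolactin, and 1.44 and 1.64 under actinomycin D. Both AML12 prolactin arrays were above all other arrays, whereas both Hepa 1-6 prolactin arrays were below their controls.

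Slc40a1 was the only one of the 8 tested genes that changed with prolactin, with a rise of 0.73 ± 0.09 in AML12, or 1.65-fold (adjusted p = 0.0198). The difference in Hepa 1-6 was -0.21 ± 0.09 (-0.43 to 0.0047, adjusted p = 0.617), and the difference between the 2 responses was -0.94 ± 0.13, just over the threshold (adjusted p = 0.0513). That difference passed after median centring (adjusted p = 0.0499) and without the lowest 20% of mean ratios (0.0444). The call in AML12 was lost without the first or the second AML12 control (adjusted p = 0.0760 and 0.111), without the second prolactin array (0.0602), and in fits on the compared groups or on the 6 AML12 arrays alone (0.223 and 0.169), although the rise stayed between 0.64 and 0.81 under all 23 alternatives.

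With actinomycin D Slc40a1 fell in Hepa 1-6 by 2.37-fold, a log2 difference of -1.24 ± 0.09 (adjusted p = 2.75e-05), and in AML12 by 1.24-fold, a log2 difference of -0.31 ± 0.09 (adjusted p = 0.0217). The responses differed by -0.93 ± 0.13 (adjusted p = 0.00172). The AML12 fall lost its call after median centring, at -0.21 (adjusted p = 0.0969), and without any 1 of the 4 AML12 control and actinomycin D arrays (0.0529 to 0.102). Slc40a1 was the only 1 of the 8 tested genes that fell in both lines, and the only 1 for which control groups did not differ (-0.20 ± 0.09, -0.41 to 0.020, adjusted p = 0.103).

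**Figure D3:**
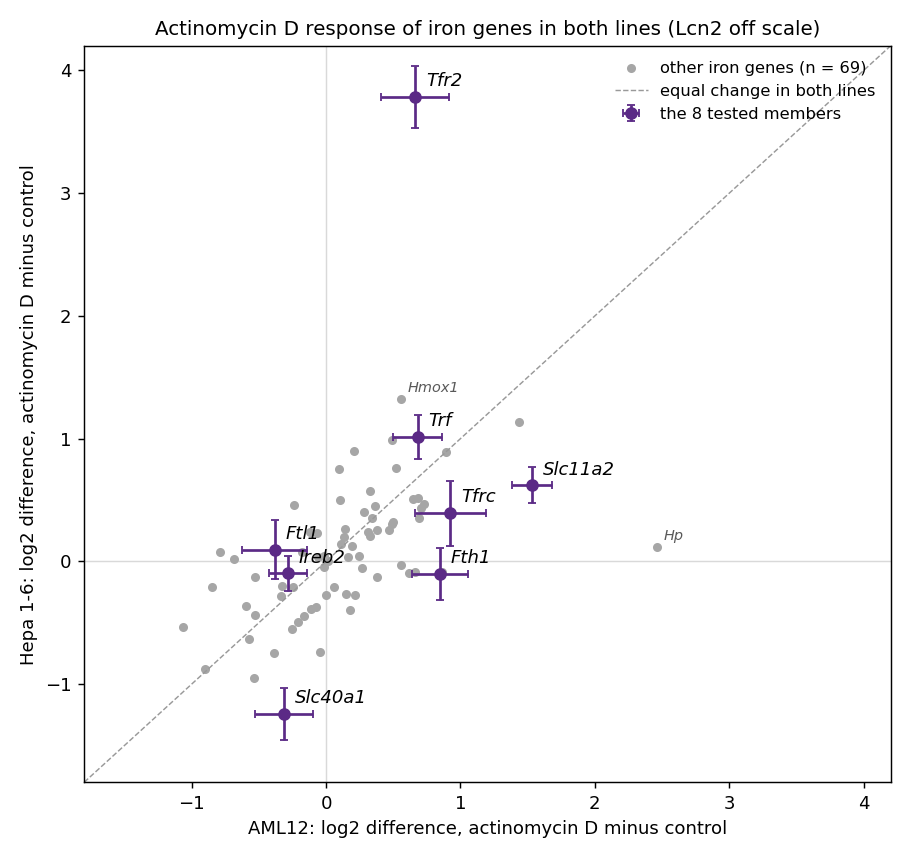
Log2 difference between actinomycin D and control in AML12 (horizontal axis) and in Hepa 1-6 (vertical axis). Purple points are the 8 tested genes with 95% confidence intervals, and the dashed line marks equal change. Grey points are the other iron genes except Lcn2, which is off scale and not drawn (6.08 in AML12). Tfr2 lies far above the line (0.66 and 3.78), Slc11a2 and Fth1 lie below it, and Slc40a1 is the lowest point on the vertical axis at -1.24.

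Fth1 and Ftl1 encode the heavy and light chains of ferritin, the protein shell that stores iron, of which the heavy chain oxidises the iron that enters. The Fth1 log2 ratio was -0.15 and -0.32 in untreated AML12, -0.40 and -0.30 under prolactin, and 0.56 and 0.67 under actinomycin D. In Hepa 1-6 it was -2.15 and -2.03 without treatment, -1.97 and -1.98 under prolactin, and -2.28 and -2.11 under actinomycin D. Only the AML12 actinomycin D arrays were above the reference, and all Hepa 1-6 arrays were between 0.218 and 0.254 of it by group mean.

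The Ftl1 log2 ratio was 0.54 and 0.44 in untreated AML12, 0.41 and 0.60 under prolactin, and 0.084 and 0.14 under actinomycin D. In Hepa 1-6 it was -1.06 and -1.15 without treatment, -1.06 and -1.04 under prolactin, and -0.87 and -1.15 under actinomycin D. The 3 Hepa 1-6 groups overlapped, and in AML12 the actinomycin D arrays were below the others. Both ferritin genes were lower in Hepa 1-6 controls than in AML12 controls, Fth1 by 3.63-fold (log2 difference -1.86 ± 0.09, adjusted p = 5.69e-07) and Ftl1 by 3.03-fold (-1.60 ± 0.10, adjusted p = 3.00e-06).

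Under actinomycin D the chains moved in opposite directions in AML12. Fth1 rose by 0.85 ± 0.09, or 1.80-fold (adjusted p = 0.000125), while Ftl1 fell by 0.38 on the log2 scale, or 1.30-fold (-0.38 ± 0.10, adjusted p = 0.0151). In Hepa 1-6 neither passed, with Fth1 at -0.10 ± 0.09 (-0.31 to 0.11, adjusted p = 0.378) and Ftl1 at 0.096 ± 0.10 (-0.14 to 0.34, adjusted p = 0.475). The lines differed for Fth1 by -0.95 ± 0.13 (adjusted p = 0.00137) and for Ftl1 by 0.48 ± 0.15 (adjusted p = 0.0426).

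The Ftl1 calls were the weaker ones. The fall of Ftl1 in AML12 was lost after median centring, at -0.27 (adjusted p = 0.0508), and without the first AML12 control or the first actinomycin D array (0.0830 and 0.0700), and the Ftl1 difference between lines was lost under 13 of 22 alternatives. These included leaving out any single control or AML12 actinomycin D array, either Hepa 1-6 prolactin array or the first Hepa 1-6 actinomycin D array, with adjusted p-values up to 0.122. Prolactin gave Fth1 -0.11 ± 0.09 in AML12 (-0.32 to 0.096, adjusted p = 0.588) and 0.12 ± 0.09 in Hepa 1-6 (-0.093 to 0.33, adjusted p = 0.804). It gave Ftl1 0.012 ± 0.10 and 0.055 ± 0.10 (adjusted p = 0.972 and 0.946). Both genes have 1 feature, and the annotation lists ferritin pseudogenes such as Ftl1-ps1, Ftl2-ps and Fth-ps2. A probe may bind such copies, which was not tested, so both values are uncertain.

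Ireb2 encodes iron regulatory protein 2, which binds the ferritin and transferrin receptor messages when iron is scarce. The mean of its 3 features was 0.83 and 0.85 in untreated AML12, 0.92 and 0.87 under prolactin, and 0.61 and 0.51 under actinomycin D. In Hepa 1-6 it was 0.21 and 0.19 without treatment, 0.21 and 0.30 under prolactin, and 0.066 and 0.14 under actinomycin D. Every Hepa 1-6 array was below every AML12 array.

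Ireb2 was lower in Hepa 1-6 controls by 1.56-fold (log2 difference -0.64 ± 0.06, adjusted p = 3.23e-05), and each of its 3 features was called lower there, by -0.87 to -0.34. With actinomycin D it fell in AML12 by 0.28 on the log2 scale (-0.28 ± 0.06, adjusted p = 0.00536), and in Hepa 1-6 it was at -0.098 ± 0.06 (-0.24 to 0.044, adjusted p = 0.221). The difference between these responses did not pass (0.18 ± 0.09, adjusted p = 0.154). Prolactin gave 0.052 ± 0.06 and 0.050 ± 0.06 in AML12 and Hepa 1-6 (adjusted p = 0.730 and 0.898).

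The Ireb2 features disagreed in AML12. With actinomycin D they were at -0.65 (adjusted p = 0.00133), -0.25 (0.0263) and 0.058 (0.582), so the fall came from 2 of the 3. With the feature at -0.65 alone, the difference between the lines' responses was 0.59 and passed (adjusted p = 0.0245). When every feature was tested by itself, the feature at -0.25 was also called lower in Hepa 1-6, at -0.23 (adjusted p = 0.0395). Its difference between the lines' responses was 0.020 (adjusted p = 0.912). The others were not called in Hepa 1-6, at -0.060 and -0.0040 (adjusted p = 0.682 and 0.974). The third feature, on the same accession as the first, was at 0.35 with prolactin in AML12 (adjusted p = 0.0730) where the first was at -0.15.

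**Figure D4:**
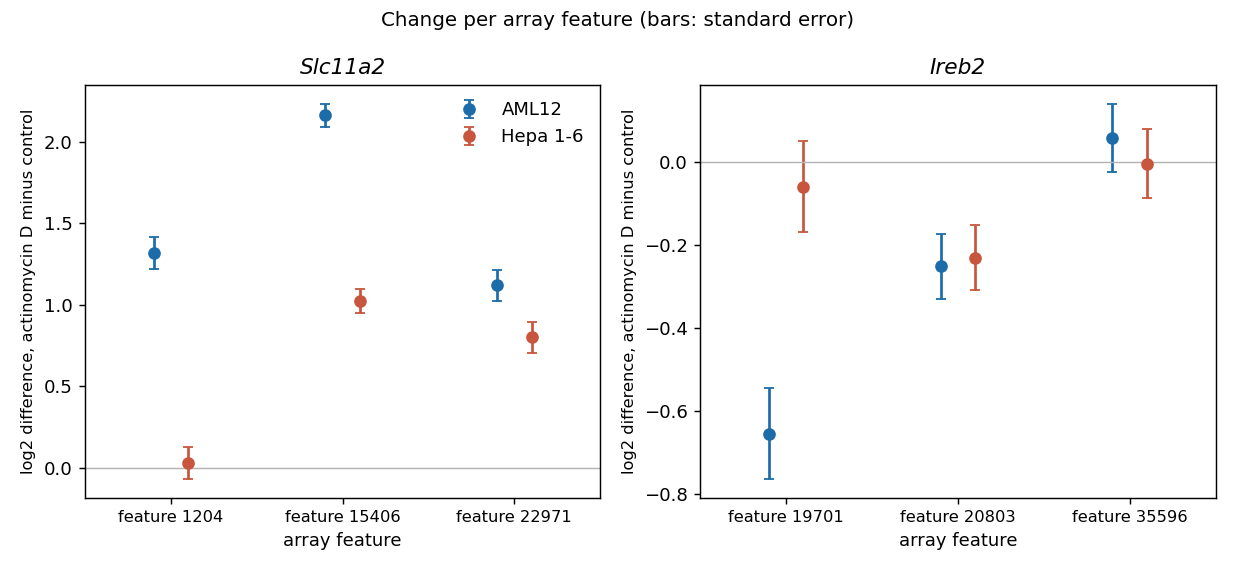
Log2 difference between actinomycin D and control (vertical axes) for each array feature of Slc11a2 and Ireb2, AML12 in blue and Hepa 1-6 in red, with bars of 1 standard error. The 3 Slc11a2 features rise by 1.12 to 2.16 in AML12, and 1 of them stays near 0 in Hepa 1-6, while the Ireb2 features spread from -0.65 to 0.058 in AML12.

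Other genes of iron metabolism, listed with earlier results of these data known, show what surrounds the 9. Of these, 71 had a named feature and 70 were tested. With prolactin, 1 of the 70 changed in AML12, Slc39a14, which encodes the transporter ZIP14 for iron not bound to transferrin and which fell by 0.44 on the log2 scale (-0.44 ± 0.07, adjusted p = 0.0303). Over all genes the share called there was 1.27%. In the fits on the compared groups or on the 6 AML12 arrays alone, 0 genes were called, so the Slc39a14 call was lost in both. In Hepa 1-6 0 of the 70 changed with prolactin in limma, with 5 at an unadjusted p under 0.05. With actinomycin D, 27 rose and 16 fell in AML12 (28% and 25.5% of all genes), and 20 rose and 20 fell in Hepa 1-6 (27.9% and 23% of all genes).

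Of 13 other genes of uptake, 8 rose and 3 fell with actinomycin D in AML12 (28% and 25.5% of all genes). In Hepa 1-6, 6 rose and 3 fell (27.9% and 23% of all genes). Slc39a14 rose with actinomycin D by 0.73 ± 0.07 in AML12 (adjusted p = 5.59e-05) and by 0.46 ± 0.07 in Hepa 1-6 (adjusted p = 0.000727). The difference between these responses was not called (-0.26 ± 0.09, adjusted p = 0.0734). The endocytic receptor gene Lrp1 fell in both lines, at -0.58 ± 0.08 and -0.63 ± 0.08 (adjusted p = 0.000453 and 0.000324). Between controls, Slc39a8, which encodes the related transporter ZIP8, was higher in Hepa 1-6 by 4.96 ± 0.17 (adjusted p = 8.80e-08).

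Of 17 tested genes that act on hepcidin, 5 were higher and 11 lower in Hepa 1-6 controls than in AML12 controls, where 32.1% of all genes were higher and 29.8% lower. Hfe, the gene of the haemochromatosis protein that interacts with transferrin receptors, was lower by 2.17 on the log2 scale (-2.17 ± 0.09, adjusted p = 2.55e-07). Tmprss6, the gene of the protease matriptase-2 that restrains hepcidin, was also lower (-2.43 ± 0.16, adjusted p = 3.03e-06). Erfe, which encodes erythroferrone, was higher (4.14 ± 0.29, adjusted p = 4.77e-06). With actinomycin D Hfe rose by 0.66 ± 0.09 in AML12 (adjusted p = 0.000525), and its response was lower in Hepa 1-6 (log2 difference -0.74 ± 0.13, adjusted p = 0.00452).

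Of 12 genes of storage and handling, 2 rose and 2 fell with actinomycin D in AML12 (28% and 25.5% of all genes). In Hepa 1-6, 3 rose and 4 fell (27.9% and 23% of all genes). Ncoa4, the receptor that delivers ferritin for degradation, rose by 0.68 ± 0.13 in AML12 (adjusted p = 0.00230) and by 0.51 ± 0.13 in Hepa 1-6 (adjusted p = 0.0102). Fbxl5, part of the ligase that removes IRP2 when iron is ample, fell in both lines, at -0.53 ± 0.15 in AML12 and -0.44 ± 0.15 in Hepa 1-6 (adjusted p = 0.0202 and 0.0434).

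Of 8 genes of export and plasma iron proteins, 5 rose and 1 fell with actinomycin D in AML12 (28% and 25.5% of all genes). In Hepa 1-6, 2 rose and 1 fell (27.9% and 23% of all genes). Lcn2, whose product binds siderophores, rose in AML12 by 6.08 ± 0.12 (adjusted p = 8.38e-08), and the haptoglobin gene Hp by 2.46 ± 0.12 (adjusted p = 2.42e-06). Their responses were lower in Hepa 1-6, with log2 differences of -5.94 ± 0.16 for Lcn2 and -2.34 ± 0.17 for Hp (adjusted p = 2.03e-06 and 9.95e-05). Cp, the gene of the plasma ferroxidase ceruloplasmin that works with ferroportin, was lower in Hepa 1-6 controls (-4.75 ± 0.07, adjusted p = 2.15e-09), as was Hp (-6.33 ± 0.12, adjusted p = 5.05e-09).

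For the hepatocyte markers measured, the mean log2 ratio per array was 3.56 to 3.95 in AML12 with actinomycin D, and 1.92 to 2.03 in Hepa 1-6 with it. Of 8 tested markers, 0 were higher and 4 lower in Hepa 1-6 controls, with a median log2 difference of -1.55, where 61.9% of all genes were called in either direction. With actinomycin D in AML12, 2 of them rose and 3 fell (28% and 25.5% of all genes). In Hepa 1-6, 1 rose and 0 fell (27.9% and 23% of all genes). The part of these markers in the differences of the iron genes between lines was not tested.

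Across the 12 arrays, the genes most like Tfr2 by Pearson correlation of log2 ratios were Vill, Tmem218 and Anxa13, at 0.999, 0.999 and 0.998. The closest to Tfrc was Ndrg2 (0.993), to Trf Ccdc22 (0.992), to Fth1 Mapt (0.998), to Ftl1 Nt5c2 (0.996) and to Ireb2 Cwf19l2 (0.992). Slc11a2 was closest to Slc16a1, Mgarp and Egln1, each at 0.986, and Slc40a1 to Spaca6, at 0.980, the lowest of these best matches. The 12 points share 6 groups and 2 lines, so genes that differ between lines correlate highly, and these values are descriptions.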

How the data were processed

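RNA of 12 cultures (6 groups of 2) was hybridised to 2-colour Agilent arrays of 45018 features, with the sample in Cy5 and the pooled reference in Cy3 on every array and no dye swap. The authors deposited log ratios, read here as log10 of sample over reference, and Agilent Feature Extraction is named in the submitters' processing notes. The base is not stated and was assumed from that software's convention, as was the direction, Cy5 over Cy3, with the dyes taken from the labels. The normalization is not given in the sources used here. Values of exactly 0 (4737 to 7621 per array) were treated as no ratio. Ratios were converted to log2, 28519 features that carried 1 gene symbol and were measured on every array were averaged per gene, and 16549 genes were fitted.

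A mean per group was fitted over all 12 arrays with limma 3.58.1 in R 4.3.3 (lmFit and eBayes, 6 residual degrees of freedom), for 7 comparisons, with two-sided tests and Benjamini-Hochberg adjustment over all genes. The precision is limited by 2 arrays per group. The fit was tested on data simulated for prolactin in AML12 alone, which does not cover the other comparisons. The members and lists were chosen with earlier results of these data known. Named among the other iron genes were those with the largest rises and falls past the threshold per list and comparison, up to 2 in each direction, of which the text gives some, and per member the genes with the highest correlation, up to 3. Alternatives changed scaling, filters, features per gene, the variance prior, the samples fitted and the replicate number as a term, and left out each array in turn.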

Additional observations from a re-analysis of the deposited data

Results flagged for a closer look

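Responses to actinomycin D that differed between the lines in limma's test of the difference itself are listed here, as Hepa 1-6 minus AML12 on the log2 scale. They were 3.12 for Tfr2 (adjusted p = 2.28e-05), -0.95 for Fth1 (0.00137), -0.93 for Slc40a1 (0.00172), -0.91 for Slc11a2 (0.000348), -0.53 for Tfrc (0.0406) and 0.48 for Ftl1 (0.0426). Beside these 6 of 8 tested iron genes, 30% of all genes differed in the same test. Fth1 rose in AML12 (0.85) with no call in Hepa 1-6 (-0.10), Slc40a1 fell in both, and Tfr2, Slc11a2 and Tfrc rose in both.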

How the results depend on the processing

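No called value of the 8 tested genes reversed under the alternatives run. The number of the 8 tested genes called with prolactin in AML12 was 1, but 0 in the fit on the compared groups alone and 0 in the fit on the 6 arrays of 1 line, the latter added after seeing the data, and 0 to 1 when single arrays were left out. For the difference between lines in the prolactin response it was 0, and 1 after median centring. It was also 1 without the lowest 20% of mean ratios, a filter that left 7 of these genes to test. Leaving out single arrays gave 6 to 8 with actinomycin D in AML12, 4 to 5 in Hepa 1-6, 4 to 6 for the difference between these responses and 7 between controls. With a replicate block, the counts in the 7 comparisons were 1, 0, 8, 5, 0, 4 and 7, in the order prolactin in AML12 and Hepa 1-6, actinomycin D in AML12 and Hepa 1-6, their 2 differences between lines, and controls. The main fit did not treat replicate numbers as pairs. Deviations of same-numbered arrays correlated at -0.0476 to 0.159 over 15 pairs of groups, which cannot show whether samples were processed in pairs. Over all genes, calls ranged from 0 to 780 with prolactin in AML12 (210 as reported), 0 to 13 in Hepa 1-6 (6), 7154 to 19488 with actinomycin D in AML12 (8863), 6508 to 17906 in Hepa 1-6 (8417), 3 to 47 for the prolactin difference (20), 3617 to 10545 for the actinomycin D difference (4972) and 8516 to 21244 between controls (10237). Counts tested per feature hold more items than counts per gene. Where limma called 0, between 1280 and 2324 genes had an unadjusted p under 0.05. With actinomycin D in AML12, centring each array shifted the overall median by 0.11 and moved the split there from 4640 higher and 4223 lower to 5848 and 3417, and the split of the actinomycin D difference from 2853 and 2119 to 2303 and 2647 (2270 and 2407 after quantile normalization). It moved the split of the prolactin difference from 9 and 11 to 11 and 25, and of prolactin in Hepa 1-6 from 5 and 1 to 5 and 2. The causes of these changes were not tested.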

Other observations

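Of 20 other genes of mitochondrial iron, iron-sulphur clusters and haem, 9 rose and 3 fell with actinomycin D in AML12, and 6 rose and 7 fell in Hepa 1-6, beside 28% and 25.5% of all genes in AML12 and 27.9% and 23% in Hepa 1-6. Hmox1, which encodes the haem oxygenase that frees iron from haem, rose in both lines, by 0.55 ± 0.10 in AML12 (adjusted p = 0.00181) and by 1.32 ± 0.10 in Hepa 1-6 (adjusted p = 2.55e-05). The rise of Hmox1 was larger in Hepa 1-6, by 0.77 ± 0.14 (adjusted p = 0.00509). Blvra, the biliverdin reductase gene that acts on the product of haem oxygenase, fell in both lines, at -1.06 ± 0.10 in AML12 and -0.53 ± 0.10 in Hepa 1-6 (adjusted p = 7.09e-05 and 0.00324).

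The mitochondrial iron importers called mitoferrins did not move together. Slc25a37 (mitoferrin 1) rose by 0.56 ± 0.09 in AML12 (adjusted p = 0.00107), while Slc25a28 (mitoferrin 2) fell in both, at -0.53 ± 0.07 in AML12 and -0.95 ± 0.07 in Hepa 1-6 (adjusted p = 0.000532 and 3.44e-05). Between controls, 9 of the 20 were higher and 5 lower in Hepa 1-6 (32.1% and 29.8% of all genes). The haem synthesis genes Ppox and Alad were higher there, by 2.18 ± 0.06 and 2.10 ± 0.28 (adjusted p = 3.15e-08 and 0.000240), and Iscu, the scaffold on which iron-sulphur clusters are built, was lower (-1.14 ± 0.06, adjusted p = 1.10e-06). With prolactin, 0 of the 20 changed in limma in either line, with 6 at an unadjusted p under 0.05 in AML12 and 2 in Hepa 1-6.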
